A study of Mus musculus with 2 samples.

Results

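Secreted factors with roles in blood vessel growth or in the response to low oxygen were followed in CT26 cells, a mouse colon cancer line, by RNA sequencing. The 10 genes were taken by name from the 54680 loci of the deposited table: Vegfa, Vegfb, Vegfc, Pgf, Angptl4, Adm, Edn1, Stc2, Pdgfb and Fgf2. They had been picked with the same comparison in view, as a contrast between the nearly flat Vegfa and the other factors, so their ratios below are a description and carry no test. One culture received a lentiviral short hairpin RNA against Setdb1, a histone H3 lysine 9 methyltransferase, and is called shSetdb1 (or the knockdown). The control culture, of wild type genotype in the labels, received lentivirus with the empty knockdown vector and is called shCtrl (or the control). Both were grown in RPMI medium with serum and collected after 6 days, and the knockdown cells are described in the labels as differentiated. Each had 1 library of 1 cell line, and the labels do not say how many hairpins or clones were used, so every difference below is between 2 libraries, with no replicate check.

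The vascular endothelial growth factor family (Vegfa, Vegfb, Vegfc, Pgf and Vegfd) signals through receptor tyrosine kinases on endothelial cells, with neuropilins as co-receptors. When oxygen is low, hypoxia-inducible factors (HIF) escape hydroxylation and degradation, bind short response elements and raise transcription of many genes. Among them are the classical secreted targets Vegfa, Angptl4, Adm and Edn1, and targets that are not secreted, such as glycolytic enzymes and Car9. Several secreted factors also answer to other pathways: ATF4, the transcription factor of the integrated stress response, has been described as an inducer of Stc2, Adm2 and Vegfa, and Angptl4 is a target of the lipid-sensing PPAR receptors.

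The shCtrl library held 18421604 reads and the shSetdb1 library 19045830, recovered from the deposited values, and mitochondrial genes took 1.01% and 0.557% of them. Setdb1, the targeted gene, was at 10.4 FPKM (1340 reads) in shCtrl cells and 2.47 FPKM (317 reads) in shSetdb1 cells. FPKM is fragments per kilobase of gene model, scaled by sequencing depth, so a comparison of levels between genes rests on the lengths of their models. Of 6 mesenchymal genes, all were above 1 FPKM in both libraries, with Vim at 752 and 835 FPKM. Of 10 intestinal epithelial markers, 7 stayed under 1 FPKM, and the epithelial markers Epcam, Cdh1 and Cdx1 had 0 reads in both libraries, which goes against a plain epithelial identity of the labelled colon cancer line. The other 3, the keratins Krt18, Krt19 and Krt20, were higher in shSetdb1 cells, and the summed level of the 10 markers was 43.8 FPKM in shCtrl cells and 128 FPKM in shSetdb1 cells. None of 9 endothelial markers reached 1 FPKM, with Pecam1, Cdh5, Emcn, Cldn5 and Erg at 0 reads in both. Of 8 leukocyte markers, Cd3e, Itgam and Adgre1 were at 0 in both libraries, Ptprc had 0 and 4 reads, and Cd68, a lysosomal protein, was the 1 above 1 FPKM, at 10.4 and 100.2 FPKM. In bulk RNA, fewer cells making a transcript and less transcript per cell cannot be told apart, and the part of the keratin and Cd68 differences in the results below was not tested.

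Promoter sequences bear on members that a shared regulator could reach, and are shown for the members with a measurable level and a RefSeq entry. RefSeq windows on GRCm38.p6, from 250 bases before to 50 after the transcription start, were found for 8 of the 10 members (Angptl4 and Pdgfb had no entry), and the first window listed for each gene was used. The letters searched, on both strands, were ACGTG and GCGTG, which are the core of the hypoxia response element (the first overlaps the E-box CACGTG), and TGANGCAA, a form of the composite element bound by ATF4. One of the hypoxia cores was present in the windows of 6 of 8 members and absent from the first-listed windows of Vegfa and Vegfc. Of all 32851 windows of that length, 43.8% held a core. The share over all windows counts every window, also where a gene has several, and was not matched for base composition. A second Vegfa window, at a start within the gene (chr17:46025114-46025413), held 2 of the cores, so only its upstream start lacked them. A second Pgf window held 0. TGANGCAA was present in 0 of 8, against 3.69% of all windows. A match is a match of letters only, and its absence says nothing of elements outside the window. The stretches below lie upstream of both the RefSeq start and the deposited gene model, are read 5′ to 3′ on the gene's strand, and have the hypoxia core, in either orientation, in capitals. Vegfa and Vegfb are the 2 abundant and nearly level members, and Stc2 and Edn1 the 2 members at least 2-fold lower in shSetdb1 cells.
Vegfa, chr17:46032378-46032627, minus strand: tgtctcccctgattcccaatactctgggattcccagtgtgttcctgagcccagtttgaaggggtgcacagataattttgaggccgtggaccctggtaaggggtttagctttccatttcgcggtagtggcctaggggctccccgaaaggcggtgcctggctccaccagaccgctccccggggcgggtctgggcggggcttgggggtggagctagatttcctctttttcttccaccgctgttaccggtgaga
Vegfb, chr19:6987652-6987901, minus strand: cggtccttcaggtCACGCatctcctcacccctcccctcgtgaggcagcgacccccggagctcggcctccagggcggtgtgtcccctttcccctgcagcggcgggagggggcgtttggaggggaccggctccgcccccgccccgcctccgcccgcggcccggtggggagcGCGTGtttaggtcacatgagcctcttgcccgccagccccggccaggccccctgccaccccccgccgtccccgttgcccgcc
Stc2, chr11:31370075-31370311, minus strand: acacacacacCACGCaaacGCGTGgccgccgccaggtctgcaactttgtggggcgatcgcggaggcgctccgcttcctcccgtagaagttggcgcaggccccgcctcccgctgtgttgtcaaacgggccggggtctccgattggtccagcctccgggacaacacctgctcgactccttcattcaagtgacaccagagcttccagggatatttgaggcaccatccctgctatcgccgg
Edn1, chr13:42301226-42301475, plus strand: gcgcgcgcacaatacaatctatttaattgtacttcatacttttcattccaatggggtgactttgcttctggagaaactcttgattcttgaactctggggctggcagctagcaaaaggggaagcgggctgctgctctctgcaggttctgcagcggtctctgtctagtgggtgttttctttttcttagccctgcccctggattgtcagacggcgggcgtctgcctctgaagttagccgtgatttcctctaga
Edn1 has its match just after the start, on the opposite strand, and this site at chr13:42301489-42301509 reads as follows.
Edn1 site: tctggctgCACGTtgcctgtg
The cores thus appear in the printed stretches of Vegfb and Stc2, 2 in each, and not in that of Vegfa, whose 2 matches lie in its second window, not printed here.

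Vegfb and Vegfa dominated the secreted factors in both libraries. Together they made up 91.3% of the summed FPKM of the 10 genes in shCtrl cells and 89.4% in shSetdb1 cells. The 5 members that reached 1 FPKM in either library were Vegfa, Vegfb, Angptl4, Edn1 and Stc2. The other 5 together had 24 reads in shCtrl cells and 26 in shSetdb1 cells. The order of levels in shCtrl cells was Vegfb, Vegfa, Angptl4, Stc2, Edn1, Pgf, Fgf2, Pdgfb, Adm and Vegfc. Neighbours in that order were separated beyond their 95% counting intervals (exact Poisson) except Stc2 with Edn1 and each of the last 4 genes with the next. In shSetdb1 cells Vegfb, Vegfa and Angptl4 kept the first 3 places, whereas the intervals of Edn1, Stc2, Pgf and Adm overlapped from each gene to the next, as did those of Fgf2, Vegfc and Pdgfb below them. Counting intervals cover sampling of reads only, since reads amplified by PCR are not independent molecules.

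**Figure D1:**
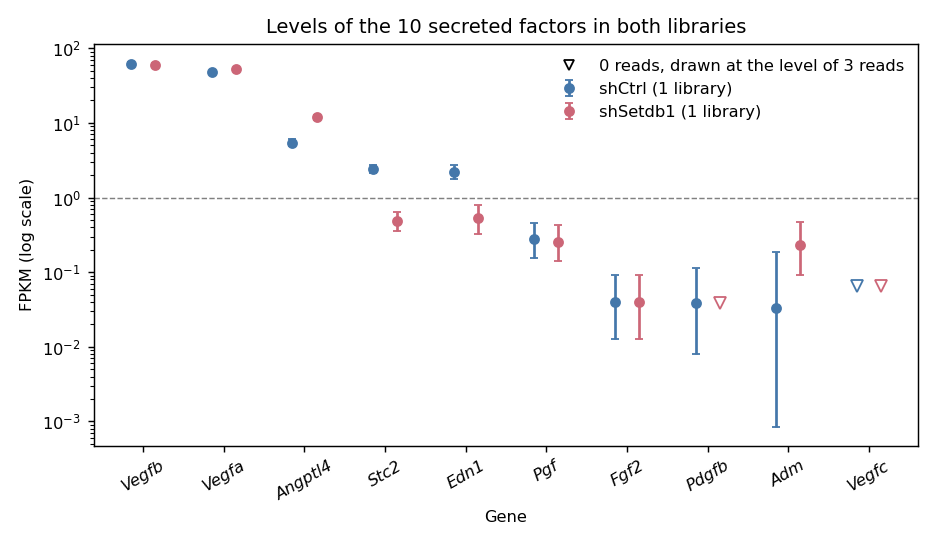
Level of each secreted factor in FPKM (log axis) in the control (blue) and knockdown (red) library, with 95% exact Poisson counting intervals. Open triangles mark 0 reads, drawn at the level that 3 reads would give, and the dashed line is 1 FPKM. Vegfb and Vegfa sit together near the top in both libraries, Angptl4 is higher and Stc2 and Edn1 are lower in shSetdb1 cells, and 5 genes stay under 1 FPKM.

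At a threshold of 2-fold on log2(FPKM + 1), 0 of the 5 measurable members were higher in shSetdb1 cells and 2 were lower. Among all 10671 genes that reached 1 FPKM in either library, 6.81% were past 2-fold upward and 4.85% past it downward. An exact binomial test of the reads, which compares these libraries and not the conditions, called 2 of the 5 members higher and 3 lower, beside 34.7% and 40.2% of all genes. The members were chosen on this comparison, so nothing is read from their count. Their median log2 ratio was -0.05, that of Vegfb, beside -0.00039 over all 10671 genes, and the 5 ratios ran from -1.20 to 0.99. The 0 in the higher direction depends on Angptl4, which lay just under the threshold on this scale.

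Vegfa, the principal growth factor for endothelial cells, lies on the minus strand of chromosome 17 (46016993 to 46032369, GRCm38). It was at 47.8 FPKM (3834 reads; counting interval 46.3 to 49.3 FPKM) in shCtrl cells and 53.3 FPKM (4275 reads; 51.7 to 54.9 FPKM) in shSetdb1 cells. The 2 intervals do not overlap, but the step is small. Its log2 ratio of (FPKM + 1), knockdown over control, was 0.15, with a counting interval of 0.09 to 0.22. This places it at percentile 61.0 of the ratios of all genes at 1 FPKM or more, and 77.6% of those genes had a ratio farther from 0. Both libraries were divided by the same depth by the authors, and relative to each library's own read total the ratio of reads was 1.08 (1.03 to 1.13) in place of 1.12 (1.07 to 1.17). The log2 ratio was 0.0672 under upper-quartile scaling and 0.09 with scaling that left out the 100 highest genes, so the size of this difference rests on the scaling.

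Vegfb, a relative of Vegfa that binds VEGF receptor 1 and is not a classical hypoxia target, lies on chromosome 19 (6982473 to 6987651, minus strand). Its level was 62.2 FPKM (1870 reads) in shCtrl cells and 60.0 FPKM (1804 reads) in shSetdb1 cells. The ratio of reads was 0.965, with a counting interval of 0.904 to 1.03 that includes no change. Relative to each library's own read total it was 0.933 (0.874 to 0.996), an interval that ends just below no change, and the test of the reads, which used those totals, counts Vegfb among the lower members. In FPKM, Vegfa thus stood at 0.768 of the Vegfb level in shCtrl cells and 0.888 in shSetdb1 cells. That order rests on the gene model lengths, 4285 bases for Vegfa and 1605 for Vegfb, since Vegfa had more reads in both libraries. Gene-level values do not show which Vegfa or Vegfb splice forms made up these levels.

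The other members of the VEGF family were scarce. Pgf, placental growth factor, on chromosome 12 (85166635 to 85177790), had 15 reads (0.276 FPKM) in shCtrl cells and 14 reads (0.257 FPKM) in shSetdb1 cells. Vegfc, the lymphatic growth factor on chromosome 8 (54077606 to 54187096), had 0 reads in both, which allows up to 0.0654 FPKM in each. A difference in either gene was not detectable at this depth. Vegfd, the other lymphatic ligand, was at 1.35 FPKM (61 reads) in shCtrl cells and 2.13 FPKM (96 reads) in shSetdb1 cells, a read ratio of 1.57 (1.13 to 2.21).

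Most receptors for these ligands had few or no reads. Kdr and Flt4, the main receptors on blood and lymphatic endothelium, had 0 reads in both libraries. Flt1, the receptor for Vegfb and Pgf, had 20 and 41 reads, under 1 FPKM in each. The co-receptor Nrp2 was the 1 family receptor above 1 FPKM, at 20.0 FPKM in shCtrl cells and 22.7 FPKM in shSetdb1 cells, a log2 ratio of 0.18. Nrp1 stayed under 1 FPKM, with 114 and 174 reads.

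Angptl4, an inhibitor of lipoprotein lipase that also acts on vessel walls, was the member with the highest ratio among those measurable. It lies on chromosome 17 (33773750 to 33781575, minus strand) and went from 5.46 FPKM (336 reads; 4.89 to 6.07 FPKM) in shCtrl cells to 11.8 FPKM (728 reads; 11.0 to 12.7 FPKM) in shSetdb1 cells. The counting intervals are well apart. The read ratio was 2.17 (1.90 to 2.47), and the log2 ratio of (FPKM + 1) was 0.99 (0.83 to 1.15), at percentile 93.1 of all genes. The 2-fold threshold was passed on log2(CPM + 1) of the recovered reads (1.03) and with a pseudocount of 0.1 (1.10).

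Relatives of Angptl4 went in both directions. Angptl6 had the lowest ratio of all the relatives and partners examined, from 46.2 FPKM (1370 reads) in shCtrl cells to 5.16 FPKM (153 reads) in shSetdb1 cells, a log2 ratio of -2.94. Its annotated model overlaps A230050P20Rik, which had 123 and 111 reads, and 1 other locus has the same protein match in the deposited table. Angptl2, a secreted pro-inflammatory and angiogenic factor, was at 29.9 and 56.2 FPKM, a log2 ratio of 0.89. Angpt2, an angiopoietin that destabilises vessels, had 53 reads in shCtrl cells and 133 in shSetdb1 cells (0.767 and 1.92 FPKM), and it lies within Mcph1, which had 437 and 262 reads. Lipoprotein lipase (Lpl) and its anchor Gpihbp1, the partners of Angptl4 in lipid uptake, had 0 reads in both libraries. Of 8 PPAR target genes, 3 reached 1 FPKM: Plin2 (log2 ratio 0.29), Acadvl (0.30) and Cpt1a (-0.31). Of these 3, 0 passed 2-fold in either direction, beside 11.7% of all genes.

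Stc2, stanniocalcin 2, a secreted glycoprotein that inhibits the metalloproteinase PAPP-A, had the lowest ratio of the 10 members. Its gene is on chromosome 11 (31357307 to 31370074, minus strand), and its level was 2.40 FPKM (233 reads; 2.10 to 2.73 FPKM) in shCtrl cells and 0.485 FPKM (47 reads; 0.356 to 0.645 FPKM) in shSetdb1 cells. The intervals do not touch. The shSetdb1 library held 20.2% of the control reads, a ratio of 0.202 (0.144 to 0.277), and the log2 ratio of (FPKM + 1) was -1.20. That scale understates the difference at such low levels, and with a pseudocount of 0.1 the log2 ratio was -2.10. Its relative Stc1 and its target Pappa had 0 reads in both libraries, and Igfbp4, the binding protein that PAPP-A cleaves, was at 75.1 and 60.6 FPKM, a log2 ratio of -0.30.

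Edn1 encodes the precursor of endothelin 1, a vasoconstrictor peptide, and lies on chromosome 13 (42301476 to 42307990, plus strand). It had 89 reads (2.22 FPKM; 1.78 to 2.73 FPKM) in shCtrl cells and 21 reads (0.524 FPKM; 0.324 to 0.801 FPKM) in shSetdb1 cells. Its level in shSetdb1 cells was below that in shCtrl cells beyond counting error, with a read ratio of 0.236 (0.139 to 0.383) and a log2 ratio of -1.08. With a pseudocount of 0.1 the log2 ratio was -1.90. Ece1, the protease that cuts the precursor to the active peptide, went the other way, from 11.3 FPKM (1118 reads) to 28.2 FPKM (2803 reads), a log2 ratio of 1.25. The relatives Edn2 and Edn3 and the receptors Ednra and Ednrb had 0 reads in both libraries.

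Adm, adrenomedullin, a vasodilator peptide and a strong hypoxia target in many cells, was barely present here. On chromosome 7 (110627661 to 110629820, plus strand), it had 1 read in shCtrl cells and 7 in shSetdb1 cells, or 0.0330 and 0.231 FPKM. The read ratio of 7 has a counting interval of 0.899 to 315, so a difference was not detectable. Gm28863, which overlaps its model, had 0 and 2 reads. Adm2, the related peptide, had more reads in shCtrl cells, 58 (2.39 FPKM) against 12 (0.494 FPKM) in shSetdb1 cells, a log2 ratio of -1.18 with a read ratio of 0.207 (0.101 to 0.389). Pam, the enzyme that amidates both peptides, was at 10.8 and 14.4 FPKM, and Ackr3, a scavenger receptor that takes up adrenomedullin, at 3.62 and 10.6 FPKM (log2 ratio 1.33). The receptor Calcrl had 18 and 12 reads, and its partners Ramp1, Ramp2 and Ramp3 had 0 reads in shCtrl cells and at most 3 in shSetdb1 cells.

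**Figure D2:**
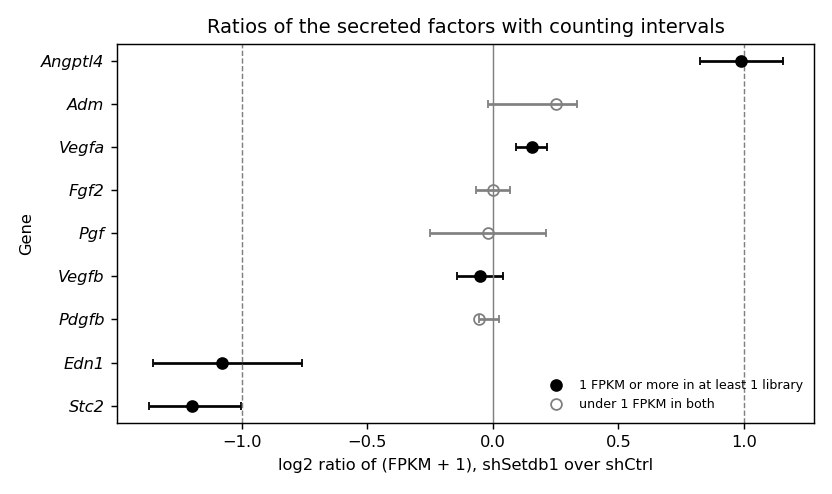
log2 ratio of (FPKM + 1), knockdown over control, for the 9 secreted factors with any reads, with 95% exact binomial counting intervals. Filled points reached 1 FPKM in at least 1 library, open points did not, and dashed lines mark 2-fold. Stc2 and Edn1 lie beyond the lower line, Angptl4 lies at 0.99 just short of the upper line, and Vegfa and Vegfb lie near 0.

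Pdgfb and Fgf2, growth factors for pericytes and for endothelial cells and fibroblasts, were close to the limit of detection. Pdgfb, on chromosome 15 (79995874 to 80014977, minus strand), had 3 reads in shCtrl cells and 0 in shSetdb1 cells, both within the 3 reads that a count of 0 allows. Fgf2, on chromosome 3 (37348346 to 37410108, plus strand), had 5 reads in each library (0.0394 FPKM). Nudt6, which overlaps Fgf2, had 49 and 37 reads, and without a stated strand setting reads of the pair cannot be told apart.

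Several other ligands and receptors of the same families had more reads, while Pdgfd, Fgf5, Fgf18, Fgfr2 and Fgfr3 had 0 reads in both libraries. Pdgfa was at 4.04 and 6.92 FPKM (log2 ratio 0.65), with an overlapping locus, 6330403L08Rik, of 379 and 289 reads. The receptor Pdgfrb was nearly level at 13.5 and 14.6 FPKM, and Pdgfra went from 94 to 333 reads (0.501 and 1.77 FPKM). Fgfr1 was the 1 FGF receptor above 1 FPKM, from 2.67 FPKM (493 reads) to 8.31 FPKM (1538 reads), a log2 ratio of 1.35. Sdc4, a heparan sulfate proteoglycan that presents FGF2 to its receptors, was at 37.8 FPKM in shCtrl cells and 126 FPKM in shSetdb1 cells, a log2 ratio of 1.71. Fgf7, an epithelial growth factor, had 290 reads against 136 (log2 ratio -0.83), and Fgf21, a hormone induced by amino acid stress, had 18 reads against 1, a read ratio of 0.0556 (0.00133 to 0.352). Fgf10 was at 1.36 and 1.89 FPKM.

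Over the 51 relatives, receptors and processing partners, 18 reached 1 FPKM in at least 1 library. Of these, 4 were at least 2-fold higher in shSetdb1 cells (Sdc4, Fgfr1, Ackr3 and Ece1), 2 at least 2-fold lower (Angptl6 and Adm2) and 12 neither. Their median log2 ratio was 0.40. Over all 10671 genes at that level, 6.81% were higher and 4.85% lower, and the median was -0.00039. The 33 other partner genes had 280 reads in shCtrl cells and 315 in shSetdb1 cells. With a pseudocount of 0.1, 6 partner genes were higher and 4 lower, beside 1134 and 870 of all 10671 genes.

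**Figure D3:**
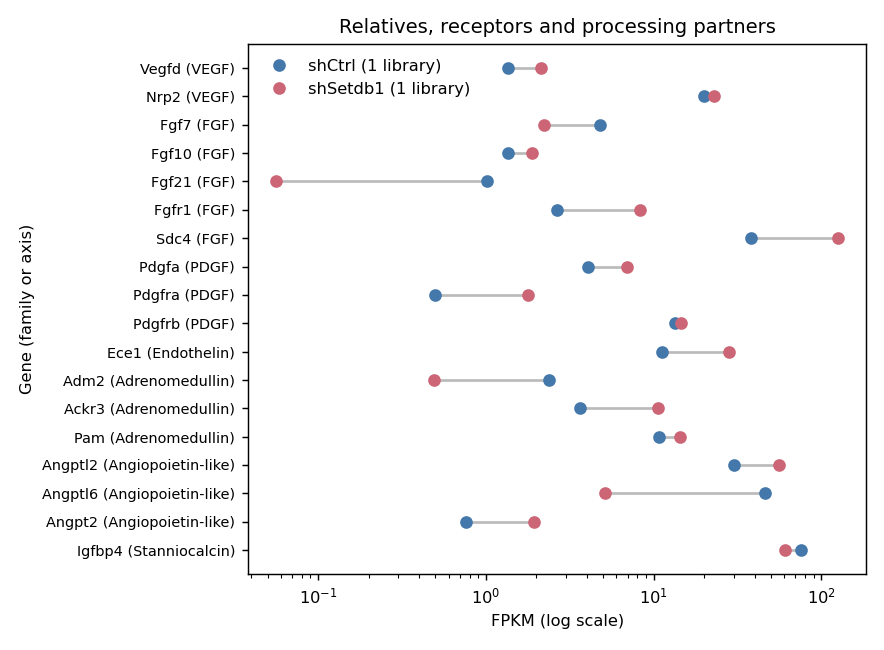
Levels in FPKM (log axis) of the 18 relatives, receptors and processing partners that reached 1 FPKM, in the control (blue) and knockdown (red) library, with the family or axis in brackets. Sdc4, Fgfr1, Ackr3 and Ece1 are at least 2-fold higher in shSetdb1 cells on the log2(FPKM + 1) scale, and Angptl6 and Adm2 at least 2-fold lower.

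The secreted factors were set beside 39 intracellular genes known to be induced by low oxygen. Of these, 34 reached 1 FPKM. In shSetdb1 cells 27 of them were at least 2-fold higher, 0 were at least 2-fold lower and 7 were neither. Among all 10671 genes at that level, 6.81% were higher and 4.85% lower by 2-fold or more. The median log2 ratio of the 34 was 1.71, beside -0.00039 over all genes. All 34 had a ratio above that of Vegfa, and 27 a ratio above that of Angptl4. The highest were Car9, a carbonic anhydrase (0.695 and 37.7 FPKM, log2 ratio 4.51), and Ankrd37 (0.416 and 29.9 FPKM, 4.45). The lowest were Eno1, an enolase (568 and 688 FPKM, 0.28), and Bnip3l, a mitophagy receptor (9.75 and 14.6 FPKM, 0.54). Many of these genes overlap other loci or share their protein match with other loci. Among the 13 with neither, 10 were at least 2-fold higher and the median was 1.45. The list was compiled with earlier results of these data known.

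Hypoxia-induced genes for other secreted proteins had mixed ratios. Of 14, 8 reached 1 FPKM, 3 of them higher and 2 lower by 2-fold or more, beside 6.81% and 4.85% of all genes. The 3 became 2 with upper-quartile scaling, own read totals, the 100 highest genes left out or log2(CPM + 1). Of the 3, Mif lay nearest the threshold, with a log2 ratio of 1.02 (counting interval 0.98 to 1.05). The list's median log2 ratio was 0.05, and it was below 0 under upper-quartile scaling and with a filter at 5 FPKM. Il11, an IL6-family cytokine, had 31 and 240 reads (log2 ratio 2.02). At the other end, Loxl4, a lysyl oxidase, was at 50.7 and 18.6 FPKM (-1.40), and Ctgf, a matricellular protein, at 21.2 and 9.22 FPKM (-1.12). Lox, Igfbp3, Epo, Cxcl12 and Lep had 0 reads in both libraries.

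Among HIF and its regulators, 5 of the 8 listed genes reached 1 FPKM, and 0 passed 2-fold in either direction, beside 11.7% of all genes. Egln1, a hydroxylase that acts on HIF, was counted with the intracellular list instead. It was at 27.7 FPKM (1868 reads) in shCtrl cells and 119 FPKM (8025 reads) in shSetdb1 cells, a log2 ratio of 2.06. Egln3, on the same list, had 0 and 2 reads. Hif1a, the oxygen-regulated subunit, was at 6.09 FPKM in shCtrl cells and 3.78 FPKM in shSetdb1 cells (log2 ratio -0.57), and its relatives Epas1 and Hif3a had 0 reads. Vhl, which marks HIF for degradation, was at 16.5 and 33.5 FPKM, a log2 ratio of 0.98 that became 1.02 with a pseudocount of 0.1. Arnt, the partner subunit, had a ratio of 0.40, and Hif1an, a hydroxylase that blocks HIF activity, -0.09. RNA levels do not show the amount or activity of HIF protein, and oxygen was not measured.

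Integrated stress response genes, to which Stc2, Adm2 and Vegfa are linked above, were mostly lower in shSetdb1 cells. Of 12, 11 reached 1 FPKM, 8 of them lower and 0 higher by 2-fold or more, beside 4.85% and 6.81% of all genes. The median log2 ratio of the 11 was -1.38. Trib3, a pseudokinase induced by ATF4, went from 362 to 41.6 FPKM (-3.09), and Chac1, a glutathione-degrading enzyme, from 84.8 to 20.4 FPKM (-2.00). The highest ratios were those of Vldlr (0.08, which was below 0 under upper-quartile scaling) and Sesn2 (-0.56). The Stc2 ratio of -1.20 lay within the range of this list, with 6 of its genes lower, whereas the Vegfa ratio of 0.15 lay above the highest of the list. The part of this pathway in the Stc2, Adm2 and Vegfa values was not tested.

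Inhibitors of angiogenesis were also split. Of 13, 7 reached 1 FPKM, 2 of them higher and 3 lower by 2-fold or more, beside 6.81% and 4.85% of all genes. The median log2 ratio of the 7 was -0.51. The related matrix proteins Thbs1 and Thbs2 went in opposite directions. Thbs1 was at 12.0 FPKM (1366 reads) in shCtrl cells and 2.80 FPKM (319 reads) in shSetdb1 cells, a log2 ratio of -1.77, whereas Thbs2 was at 13.0 FPKM (1699 reads) and 36.1 FPKM (4741 reads), a log2 ratio of 1.41. Cxcl10, an interferon-induced chemokine that also restrains vessel growth, had 15 and 493 reads (3.23), and Sema3a, a guidance factor that competes with VEGF for neuropilin, had 1411 and 519 reads (-1.10).

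**Figure D4:**
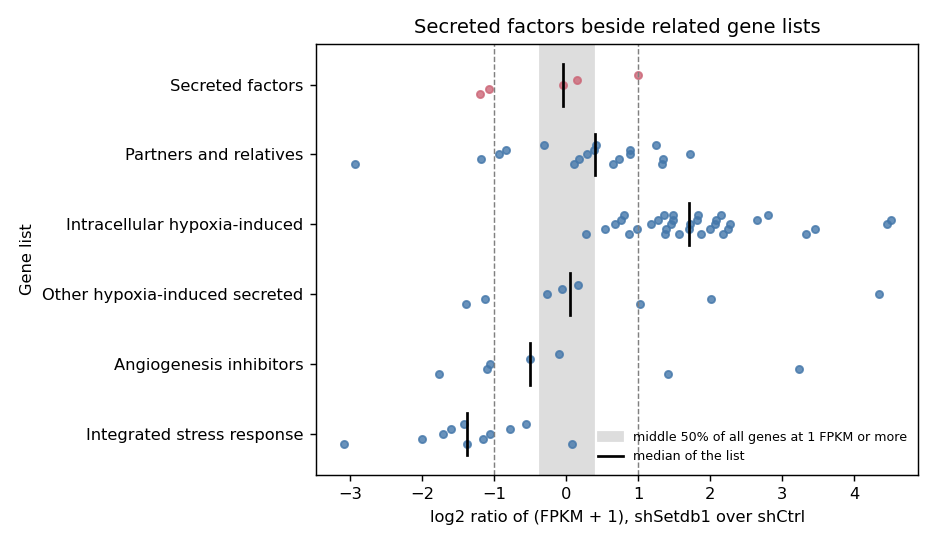
log2 ratio of (FPKM + 1), knockdown over control, for each gene that reached 1 FPKM in either library, by list; black bars are list medians, the grey band is the middle 50% of all such genes, and dashed lines mark 2-fold. The 5 secreted factors lie on both sides of 0 with a median of -0.05, the intracellular hypoxia-induced genes all lie to the right (median 1.71) and most integrated stress response genes lie to the left (median -1.38).

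The genes most like Vegfa and the 2 lower members were found by the smallest Euclidean distance in log2(FPKM + 1) over the 2 libraries, among protein-coding genes at 1 FPKM or more. For Vegfa they were Csnk1d (47.6 and 53.2 FPKM, distance 0.00593) and Nelfb (48.3 and 52.9 FPKM, distance 0.0177). For Stc2 they were Adm2 (distance 0.0114) and Gbx1 (2.50 and 0.461 FPKM, distance 0.0481), and for Edn1 they were Jmy (2.21 and 0.585 FPKM, distance 0.0566) and Adm2 (distance 0.0775). With 2 libraries, likeness means only a similar level and ratio.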

How the data were processed

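RNA of 1 control and 1 knockdown culture was sequenced after NEBNext Ultra library preparation, per the labels. The submitters' processing notes name CASAVA, HISAT2, featureCounts 1.5.0-p3 and GRCm38; the strand setting and filters are not given in the sources used here. The authors deposited FPKM values for 54680 loci with gene lengths. FPKM times length gave whole reads for 100% of values above 0 (within 0.01 read), with 1 depth of 18731117 reads for both libraries. Of the 10 members, 9 had the same start and end in GENCODE M21; Angptl4 differed, and deposited coordinates are given.

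Groups came from the labelled genotype, and columns were matched by library name. Ratios are log2 of (FPKM + 1), knockdown over control, with a 2-fold threshold over genes that reached 1 FPKM in either library. Counting intervals are 95% exact Poisson (levels) or exact binomial (read ratios), and a count of 0 was read as up to 3 reads. With 1 library a group, no p-value is given. An exact binomial test of the reads (two-sided, adjusted by Benjamini-Hochberg) was an alternative and called 3699 genes higher and 4286 lower of 10671; it compares the libraries, not the conditions. Members and lists were chosen with earlier results of these data known. Named genes were the members, Setdb1, partners at 1 FPKM or more, the 2 highest and 2 lowest of each other list, and the 2 genes nearest to Vegfa and to each member past 2-fold; other genes were named after their values were seen. Some of the genes that this rule names are not reported here. For symbols listed more than once, the row with the highest read sum was taken. The work used Python 3.11.15 with scipy 1.17.1, numpy 2.4.6, statsmodels 0.14.6, pandas 2.3.3 and, for figures, matplotlib 3.10.9, and the calculations were tested on simulated data.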

Additional observations from a re-analysis of the deposited data

How the results depend on the processing

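No paired analysis was possible because shCtrl and shSetdb1 had 1 library each, so no library could be left out either. Depth limits the 5 members under 1 FPKM, whose reads summed to 24 and 26, and the size of ratios at low levels depends on the pseudocount. Of 289 alternative values of counts, medians and the Vegfa ratio, 238 stayed near the reported value (inside its counting interval, or for counts within 1.5 times) and 51 moved; of 348 values of other named genes, 282 stayed and 66 moved. Of ratios and medians past 2-fold, 0 changed sign. Below 2-fold, 2 values of 1 median and 1 gene ratio did, namely the median of other hypoxia-induced secreted factors (-0.0193 under upper-quartile scaling and -0.0595 with a filter at 5 FPKM) and Vldlr (-0.0064 under upper-quartile scaling). Alternatives for the other lists, the guidance ligands and the named genes were added after the data were seen. Except for thresholds and filters, whose construction sets the count, the cause was not tested.

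The number of secreted factors called higher was 1 at a 1.5-fold threshold, on log2(CPM + 1) and with a pseudocount of 0.1. In each case it was Angptl4. The exact binomial test of reads, which has no fold threshold, called 2 higher, Angptl4 and Vegfa. The read ratio of Vegfa relative to own read totals was 1.08. The number called lower was 0 with a filter at 5 FPKM and at 4-fold. The Vegfa ratio was 0.0672 under upper-quartile scaling. Over all genes, 1134 were higher and 870 lower with a pseudocount of 0.1, 1804 and 1523 at 1.5-fold, 116 and 56 at 4-fold, and 3699 and 4286 by the exact binomial test.

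Without a filter the medians were 1.57 for intracellular hypoxia-induced genes, -0.12 for angiogenesis inhibitors, -1.27 for integrated stress response genes and 0.14 for PPAR targets. On log2(CPM + 1) they were -0.71 for inhibitors, -1.44 for stress response genes and 0.25 for PPAR targets. Upper-quartile scaling gave -0.13 for HIF and its regulators, -1.47 for stress response genes and 0.21 for PPAR targets, scaling without the 100 highest genes -1.44 and 0.23 for the last 2 lists, and own read totals 0.25 for PPAR targets.

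Partner genes numbered 6 higher and 4 lower with a pseudocount of 0.1, and 1 lower with the filter at 5 FPKM; they numbered 8 higher and 4 lower at 1.5-fold, and 0 and 1 at 4-fold. At 4-fold, 13 intracellular hypoxia-induced genes were higher, 0 other secreted factors lower, 1 inhibitor higher and 0 lower, and 2 stress response genes lower. Of HIF and its regulators, 1 was higher with a pseudocount of 0.1 and at 1.5-fold. Guidance ligands numbered 3 higher on log2(CPM + 1) and with a pseudocount of 0.1, 0 higher with own read totals, upper-quartile scaling or the 100 highest genes left out, 3 higher and 4 lower at 1.5-fold, and 0 and 0 at 4-fold; their median was -0.90 with the filter at 5 FPKM.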

Other observations

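Guidance ligands that also act on blood vessels were examined as a further group of secreted or membrane-bound factors, listed after the other data were seen. Sema3a, already counted among the inhibitors of angiogenesis above, is in this group too. Of 20 class 3 semaphorins, ephrins, Slits and netrins, 11 reached 1 FPKM, 1 of them higher and 2 lower by 2-fold or more in shSetdb1 cells, with a median log2 ratio of -0.05. Over all genes at that level, 6.81% were higher and 4.85% lower.

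Efna1, an ephrin known as a hypoxia and cytokine target, was at 5.98 FPKM (205 reads) in shCtrl cells and 13.4 FPKM (458 reads) in shSetdb1 cells, a log2 ratio of 1.04. It was under 2-fold when libraries were scaled by their own read totals (0.996), by the upper quartile or without the 100 highest genes. Efna2 had 41 and 111 reads (0.90), while Efna5 had 278 and 235 reads. Slit2, a secreted ligand of Robo receptors, had 5837 reads in shCtrl cells and 2029 in shSetdb1 cells, a log2 ratio of -1.33, and Sema3a followed with -1.10. Efnb2, the arterial ephrin, had 1049 and 503 reads (-0.90).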
